A study of Mus musculus with 5 samples.

Results

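The 9 genes described here encode proteins of the ribbon synapse through which rod and cone photoreceptors signal to bipolar cells, and they were chosen by name as the rows for Cacna1f, Cacna2d4, Cabp4, Ctbp2, Unc119, Egflam, Dag1, Elfn1 and Lrit1 among the 33636 genes of the deposited count table. Each symbol had 1 row. The libraries came from retinas of wild-type male C57BL/6J mice at postnatal day 42. In each mouse a diffuser goggle had covered the right eye from day 28, for 2 weeks, to induce form-deprivation myopia (FDM), in which an eye deprived of sharp images becomes relatively short-sighted, and the uncovered left eye of the same mouse was the control. The animals carried no transgene, and 1 retina of 1 eye made each library. There were 2 FDM and 3 control libraries from 3 mice, because quality control by the authors had removed 1 FDM sample with a high read duplication. The labels give refractive errors at day 42 of 0.976 and 0.2745 D for the FDM eyes, and of 2.4455, 3.1505 and 2.465 D for control eyes 1 to 3. The second FDM library is numbered 3 in the count table and 2 in its sample title, and is called FDM 3 here. By the table's numbers FDM 1 and Control 1, and FDM 3 and Control 3, are the right and left eyes of 1 mouse each. With this pairing, the refractive errors can give the mean and standard deviation of the difference between the eyes that the paper reports. Paired by the titles, FDM 3 with Control 2, they cannot, whatever the value of the removed FDM eye.

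Photoreceptors release glutamate continuously in darkness, and a ribbon, an electron-dense plate anchored at the active zone, holds the vesicles for this release. Calcium entering through Cav1.4 channels clustered under the ribbon drives the release, and adhesion proteins that span the cleft hold the channels and release sites opposite the glutamate receptor mGluR6 of ON bipolar cells. Mutations in several of these genes disturb transmission from photoreceptors to bipolar cells, and CACNA1F mutations cause a form of congenital stationary night blindness that is often accompanied by myopia. In whole retina, fewer cells of a type and less RNA per cell cannot be told apart.

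The 3 windows printed here are the bases just upstream of RefSeq start sites of the ribbon gene Ctbp2, of Lrit1 and of Unc119. Among the 9 genes, the level of Lrit1 varied most among the libraries. That of Unc119 ranked the libraries as the geometric mean of rod marker genes did. A match to the 6-letter core bound by CRX, a homeodomain factor of photoreceptors (TAATCC or GGATTA), to a short site of the rod factor NRL (TGCTGA or TCAGCA), or to the E-box CAGCTG, searched on both strands, is in capitals. Each window is 250 bases long and is written 5′ to 3′ on the strand of its gene, in GRCm38.p6 as given by RefSeq.
Ctbp2, start of the ribbon transcript, chr7:133015248-133015497, minus strand: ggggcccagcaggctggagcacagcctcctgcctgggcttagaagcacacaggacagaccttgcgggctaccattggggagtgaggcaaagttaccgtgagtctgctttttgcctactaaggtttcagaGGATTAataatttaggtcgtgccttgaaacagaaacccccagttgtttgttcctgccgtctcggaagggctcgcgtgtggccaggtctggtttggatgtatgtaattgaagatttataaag
Lrit1, chr14:37054580-37054829, plus strand: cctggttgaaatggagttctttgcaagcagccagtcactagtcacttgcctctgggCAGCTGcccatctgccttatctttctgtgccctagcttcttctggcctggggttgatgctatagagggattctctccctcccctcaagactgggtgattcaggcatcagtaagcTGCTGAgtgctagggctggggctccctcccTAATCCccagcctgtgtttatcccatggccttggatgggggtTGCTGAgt
Unc119, chr11:78343245-78343494, plus strand: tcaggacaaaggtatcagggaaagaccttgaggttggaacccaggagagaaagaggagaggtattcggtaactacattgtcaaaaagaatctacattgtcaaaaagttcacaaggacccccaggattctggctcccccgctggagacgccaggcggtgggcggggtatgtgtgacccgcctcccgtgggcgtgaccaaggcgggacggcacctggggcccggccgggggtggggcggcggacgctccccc
The Ctbp2 window lies inside the gene, in an intron of the transcripts from its outer starts, within a stretch that the annotation also assigns to Fgfr2, and it held a CRX core 121 bases before the start. The Lrit1 window lies outside annotated genes and held a CRX core 50 bases, NRL short sites 80 and 8 bases, and an E-box 194 bases before the start. The first Unc119 window, whose last 13 bases are annotated as exon, held none of these words, while windows before 2 internal Unc119 starts held a CRX core at 118 bases and an NRL short site at 198 bases. Of all 32851 upstream windows of this length, 6.25% held a CRX core, 16.1% an NRL short site and 13.001% the E-box. The table had windows for 7 of the 9 genes, and those of Cacna1f, Egflam, Dag1 and Elfn1, and the outer Ctbp2 window, held no match. These are matches of letters, and the absence of a match says nothing about the binding of a factor.

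Every one of the 9 genes was well above the detection limit in every library, with 2975 to 76712 estimated counts per library, and passed the count filter that kept 17432 genes. Library totals were 40599047 to 56534931 counts, so that 3 counts corresponded to 0.0526 to 0.0751 CPM (counts per 1e6 counts of the genes tested). Per kilobase of the longest coding transcript, Unc119 had by far the highest level, with a mean over the 5 libraries of 1139 CPM per kilobase. It was followed by Cabp4 at 152, Cacna2d4 at 109, Cacna1f at 94.0, Lrit1 at 61.3, Ctbp2 at 55.6, Egflam at 53.6, Elfn1 at 29.6 and Dag1 at 12.8 CPM per kilobase. The ranges of neighbours overlapped for Cacna2d4 and Cacna1f, and for Lrit1, Ctbp2 and Egflam, which ran from 51.6 to 76.3, from 53.3 to 59.4 and from 44.9 to 61.0 CPM per kilobase. With the length of all exons together as the divisor, Ctbp2 came to 48.9 CPM per kilobase and fell below Egflam at 52.8.

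**Figure D1:**
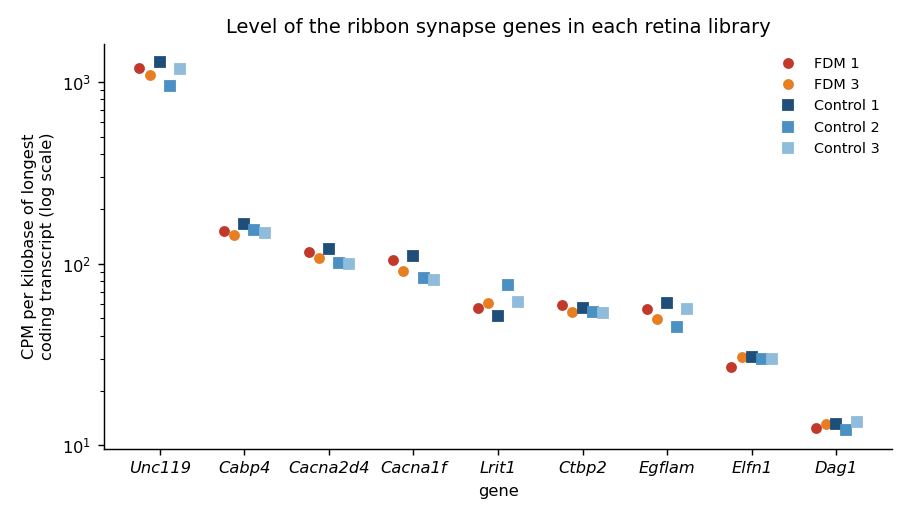
Level of each gene in each library, in CPM per kilobase of the longest coding transcript on a log scale; circles are FDM libraries and squares control libraries. Unc119 stands apart at a mean of 1139 and Dag1 is lowest at 12.8, and within each gene the FDM circles lie among or near the control squares.

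None of the 9 genes passed the test between FDM and control retinas. edgeR's quasi-likelihood test called 0 of the 9 at an unadjusted p of 0.05, the threshold the study used, against 1.61% of all genes tested, and DESeq2 also called 0 of the 9, against 0.987%. After Benjamini-Hochberg adjustment edgeR called 0 genes of the whole table, and the adjusted p of each of the 9 was 0.99999. The log2 fold changes of the 9 ran from -0.10 for Lrit1 to 0.09 for Cacna1f with a median of -0.01, which was also the median of all genes tested. Both FDM libraries lay outside the range of the 3 controls for 0 of the 9, against 10.6% of all genes tested, and 9 genes are too few to be set apart from that share.

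Cacna1f (chromosome X, 7607083 to 7635196, plus strand) encodes the pore-forming α1F subunit of Cav1.4. Its level was 634 and 553 CPM in the FDM libraries 1 and 3, against 673, 504 and 493 CPM in Control 1, 2 and 3. Control 1 was highest and the other 2 controls lowest, with both FDM libraries between them. The means were 594 ± 57.1 CPM (SD, n = 2) in FDM and 557 ± 101 CPM (SD, n = 3) in control retinas. The log2 fold change was 0.09 with a standard error of 0.15 and a 95% interval from -0.26 to 0.45 (edgeR, unadjusted p = 0.558). Within the mice, the log2 difference between the FDM and the control eye was -0.09 in the first and 0.17 in the second. Without Control 1 the log2 fold change was 0.25 and edgeR's unadjusted p 0.0395, so that 1 of the 9 genes was then called, against 5.42% of all genes, and the call rests on leaving out that library.

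Cacna2d4 (chromosome 6, 119236526 to 119352407, plus strand) encodes the auxiliary α2δ4 subunit of the same channel. It stood at 671 and 624 CPM in FDM 1 and FDM 3 and at 697, 583 and 576 CPM in the 3 controls, in the same order of libraries as Cacna1f. The fold change was 0.06 on the log2 scale with an interval from -0.19 to 0.32 (edgeR, unadjusted p = 0.573), and the pair differences were -0.06 and 0.11. The ratio of Cacna2d4 to Cacna1f CPM was 1.06 and 1.13 in the FDM libraries and 1.04, 1.16 and 1.17 in the controls, so that it varied less among libraries than Cacna1f itself, which differed 1.37-fold between its highest and lowest library.

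Cabp4 (chromosome 19, 4135423 to 4144033, minus strand) encodes a calcium-binding protein of photoreceptor terminals that binds Cav1.4 and shifts the voltage at which it opens. It was at 217 and 206 CPM in the FDM libraries and at 235, 218 and 211 CPM in the controls. Control 1 was again highest, FDM 3 was lowest, and the spread was narrow. Its log2 fold change was -0.07 with an interval from -0.27 to 0.14 (edgeR, unadjusted p = 0.473), and it was lower in the FDM eye of both mice, with log2 differences of -0.11 and -0.03. The ratio of Cabp4 to Cacna1f ran from 0.343 in FDM 1 and 0.349 in Control 1 to 0.428 and 0.433 in Control 3 and Control 2, with 0.372 in FDM 3.

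Ctbp2 (chromosome 7, 132987563 to 133124354, minus strand) encodes RIBEYE, the main structural protein of the ribbon, from an internal start, and the transcriptional corepressor CtBP2 from its outer starts. The annotation lists 3 coding transcripts, of which the one from the internal start encodes 988 amino acids and the others 445 and 420, and the counts are summed over them, so that RIBEYE was not measured apart from CtBP2. The gene was at 214 and 194 CPM in FDM 1 and FDM 3 and at 207, 195 and 192 CPM in the controls. FDM 1 was the highest library and Control 3 the lowest, and the whole range was 1.11-fold. The means were 204 ± 13.7 CPM (SD, n = 2) and 198 ± 7.74 CPM (SD, n = 3). The log2 fold change was 0.05 with a standard error of 0.09 and an interval from -0.16 to 0.25 (edgeR, unadjusted p = 0.611), which is a change of -10.3% to 18.8%. It was the single gene of the 9 that was higher in the FDM eye of both mice, by 0.05 and 0.02 on the log2 scale, against 24.7% of all genes. Of the 4095 exon bases of Ctbp2, 314 also belong to Fgfr2 on the same strand, so that some reads could be assigned to either gene.

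Unc119 (chromosome 11, 78343482 to 78349164, plus strand) encodes a lipid-binding chaperone, also called retinal gene 4, that carries acylated proteins such as rod transducin and is found in photoreceptor terminals. It reached 1640 and 1494 CPM in the FDM libraries 1 and 3, against 1755, 1304 and 1615 CPM in Control 1, 2 and 3. Control 1 was highest and Control 2 lowest, with both FDM libraries between. Its means were nearly equal, 1567 ± 103 CPM (SD, n = 2) in FDM and 1558 ± 231 CPM (SD, n = 3) in control retinas, and the log2 fold change was 0.01 with an interval from -0.31 to 0.33 (edgeR, unadjusted p = 0.951). Within the mice it was lower in the FDM eye, with log2 differences of -0.10 and -0.11. With the mouse as a block the log2 fold change was -0.11 (edgeR, unadjusted p = 0.0714, adjusted p = 0.695), and without Control 2, which has no partner, the unblocked log2 fold change was -0.09.

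**Figure D2:**
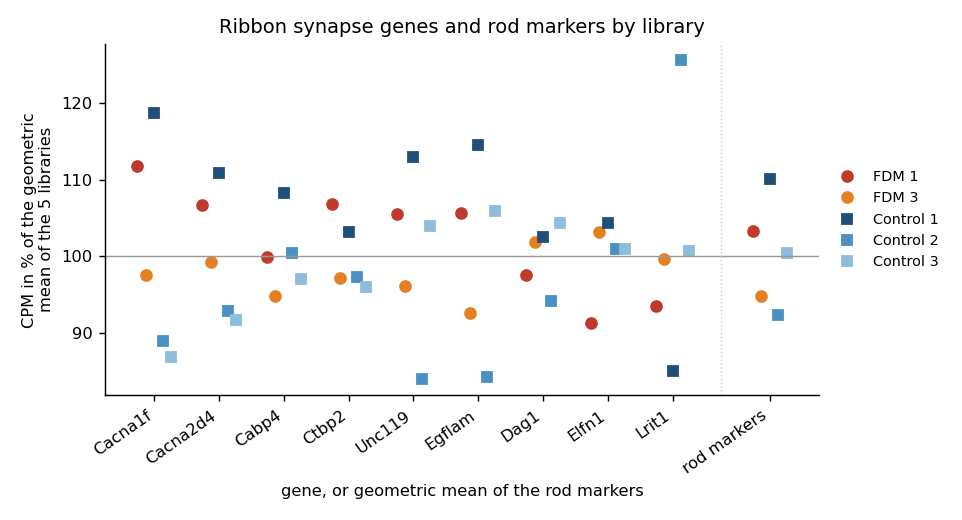
CPM of each gene in each library as a percentage of the geometric mean of its 5 libraries, with the geometric mean of 10 rod marker genes at the right; circles are FDM and squares control libraries. Control 1 is the highest library for Cacna1f, Cacna2d4, Cabp4, Unc119, Egflam and Elfn1 as well as for the rod markers, and the lowest for Lrit1.

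The adhesion proteins came next. Egflam (chromosome 15, 7206120 to 7398395, minus strand) encodes pikachurin, a matrix protein that photoreceptors secrete into the cleft and that binds dystroglycan. It was at 269 and 236 CPM in the FDM libraries and at 291, 214 and 270 CPM in the controls. As for Unc119, Control 1 was highest and Control 2 lowest, a combination seen in 25.3% of the 4727 genes with a mean of at least 50 CPM. Without pairing, the log2 fold change was -0.04 with an interval from -0.36 to 0.29 (edgeR, unadjusted p = 0.807). In the same-animal pairs it was lower in the FDM eye, with log2 differences of -0.12 and -0.19. With the mouse as a block the log2 fold change was -0.16 with a standard error of 0.05 (edgeR, unadjusted p = 0.0145, adjusted p = 0.608), the one call among the 9 genes in that fit, which called 7.23% of all genes and left 1 residual degree of freedom. With the pairing of the sample titles instead, FDM 3 with Control 2, the log2 fold change was 0.01 and 0 of the 9 genes were called, against 2.52% of all genes. In the exons of Egflam, 198 bases overlap the antisense gene Gm16029, and the library kit did not mark strand.

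Dag1 (chromosome 9, 108204634 to 108263958, minus strand) encodes dystroglycan, the receptor of pikachurin in the terminal membrane and a protein of many tissues. Its levels of 70.9 and 74.0 CPM in FDM and 74.5, 68.4 and 75.9 CPM in control libraries were the most even of the 9, with a 1.11-fold range. The log2 fold change was -0.01 with an interval from -0.21 to 0.19 (edgeR, unadjusted p = 0.919), and the pair differences were -0.07 and -0.04. Egflam moved more than its receptor among the libraries, and the ratio of Egflam to Dag1 was 3.79 and 3.18 in the FDM and 3.91, 3.13 and 3.55 in the control libraries.

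Elfn1 (chromosome 5, 139907943 to 139974722, plus strand) encodes a leucine-rich repeat protein of rod terminals that binds mGluR6 across the cleft. It was at 103 and 117 CPM in FDM 1 and FDM 3 and at 118, 114 and 114 CPM in the controls. FDM 1 was the lowest library, and FDM 3 stood among the controls. The log2 fold change was -0.07 with an interval from -0.28 to 0.13 (edgeR, unadjusted p = 0.444). The pairs differed in sign, at -0.19 and 0.03, and Elfn1 was the exception among the 9, in that its larger pair difference exceeded the range of the 3 controls, while for the other 8, and for 78.8% of all genes, it did not. The authors' normalized counts of Elfn1 were 4613 and 5323 in FDM and 5596, 5353 and 5703 in control libraries, without overlap, as for 12.5% of all genes tested. The gene-level factor behind them, divided by the median factor of its library, was 1.05 and 1.03 in FDM 1 and FDM 3 and 0.979, 1.004 and 0.941 in the controls, and lay outside the middle 90% of the well-counted genes in FDM 1 (0.962 to 1.04) and in Control 3 (0.958 to 1.05). With these factors as offsets the log2 fold change of Elfn1 was -0.16 (edgeR, unadjusted p = 0.126).

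Lrit1 (chromosome 14, 37054830 to 37064946, plus strand) encodes a photoreceptor leucine-rich repeat transmembrane protein that interacts with mGluR6 signalling at the synapse. It was at 245 and 262 CPM in the FDM libraries and at 223, 330 and 265 CPM in Control 1, 2 and 3. The order was close to the reverse of that of Unc119, with Control 2 highest and Control 1 lowest, as in 22.5% of the genes with at least 50 CPM. Its 1.48-fold range was the widest of the 9 and lay just above the 95th percentile, 1.47, of those genes, whose median range was 1.18-fold. The means were 253 ± 11.4 CPM (SD, n = 2) and 273 ± 53.9 CPM (SD, n = 3), and the log2 fold change was -0.10 with a standard error of 0.16 and an interval from -0.47 to 0.26, or -28.0% to 20.1% (edgeR, unadjusted p = 0.526). The pair differences were 0.14 and -0.02, and with the mouse as a block the log2 fold change was 0.06 (edgeR, unadjusted p = 0.311).

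**Figure D3:**
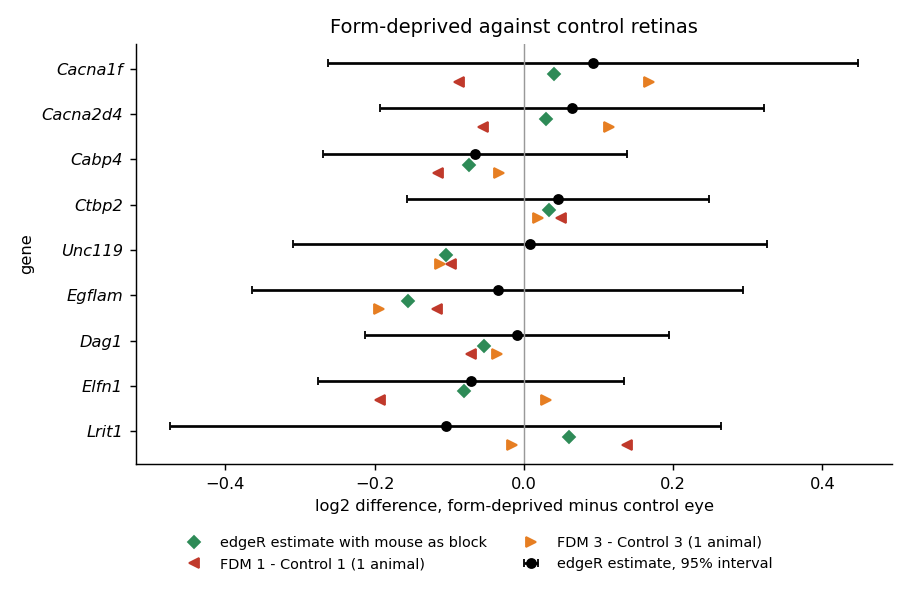
Log2 difference of each gene between FDM and control retinas; black points are edgeR estimates with 95% intervals (n = 2 and 3), green diamonds the estimates with the mouse as a block, and triangles the differences within the 2 same-animal pairs. Every interval of the unblocked fit spans 0, and for Egflam both pairs and the blocked estimate lie below 0, at -0.12, -0.19 and -0.16.

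Over the same-animal pairs, 4 of the 9 genes were lower in the FDM eye of both mice, namely Cabp4, Unc119, Egflam and Dag1, against 30.3% of all genes tested. Ctbp2 alone was higher in both, and Cacna1f, Cacna2d4, Elfn1 and Lrit1 went opposite ways in the 2 mice. Both subunits of the calcium channel were lower in the FDM eye of the first mouse and higher in that of the second, while Lrit1 did the reverse. With 2 pairs no permutation test can reach p = 0.05, and the direction of each gene is given as a description.

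The rod marker level differed 1.19-fold among the libraries, near the 1.18-fold median range of the 4727 genes with at least 50 CPM. The geometric mean CPM of 10 rod markers, among them Gnat1, Pde6b and Nrl, was 2871 and 2634 in the FDM libraries 1 and 3, and 3060, 2567 and 2790 in the controls. These 5 values rank the libraries exactly as Unc119 does, an order found in 5.63% of the 4727 genes with at least 50 CPM. As a percentage of the rod marker level, Unc119 was at 57.1 and 56.7 in FDM and at 57.4, 50.8 and 57.9 in the controls, so that its range shrank from 1.35-fold to 1.14-fold, with Control 2 alone below the rest. Egflam likewise went from a 1.36-fold to a 1.16-fold range. For Lrit1 the range grew from 1.48-fold to 1.76-fold. In all, 5 of the 9 genes varied less and 4 varied more relative to the rod markers than in CPM, and the ratio of Lrit1 to Unc119 differed 1.99-fold between Control 1 and Control 2. None of the 10 rod, 8 cone or 8 bipolar markers was called by edgeR at an unadjusted p of 0.05, and all were detected in every library. Summed bipolar markers stayed between 1387 and 1446 CPM. The part of rod RNA in the values of the 9 genes was not tested.

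**Figure D4:**
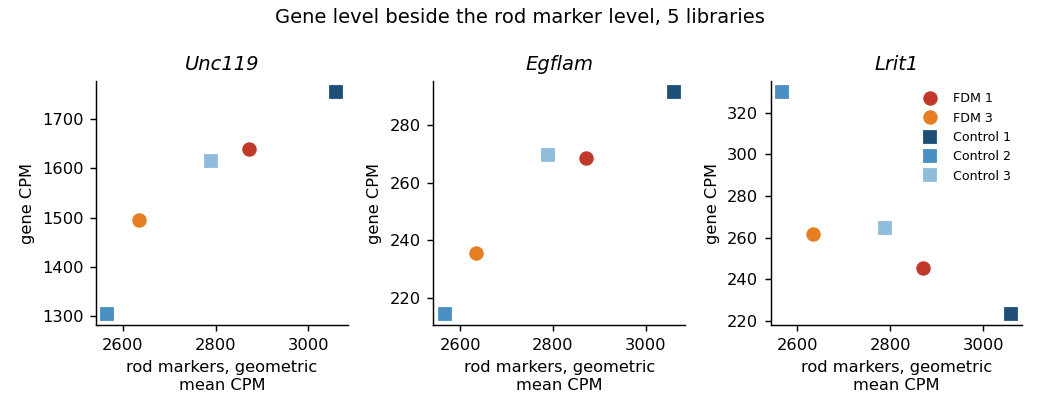
CPM of Unc119, Egflam and Lrit1 against the geometric mean CPM of 10 rod markers, with 1 point for each library (circles FDM, squares control) and axes that do not start at 0. Unc119 ranks the 5 libraries as the rod markers do, Egflam lies close to that order, and Lrit1 falls from 330 to 223 CPM as the rod markers rise from 2567 to 3060 CPM.

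RNA of neighbouring tissues also differed among the libraries. The 10 lens markers found, of 11 listed, summed to 2188 CPM in FDM 3 and to between 3.06 and 21.4 CPM in the other libraries, and all 10 were called higher in FDM. The 7 markers of the retinal pigment epithelium summed to 71.5 and 58.2 CPM in FDM and to 78.0, 262 and 225 CPM in Control 1, 2 and 3, and 6 of them were called lower. The 6 muscle markers summed to 59.5 CPM in Control 3 and to between 9.24 and 10.7 CPM in the other libraries. The part of these tissues in the values of the 9 genes was not tested. Without FDM 3 none of the 9 passed the threshold and the log2 fold change of Egflam was 0.06 in place of -0.04.

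Beyond the 9 genes, 53 other genes of the photoreceptor synapse, or of partners of its proteins, were listed by role. Of these, Gnat1 is also a rod marker, and Grm6, Trpm1 and Cabp5 are also bipolar markers. At an unadjusted p of 0.05, edgeR and DESeq2 each called 0 of the 53, against 1.61% and 0.987% of all genes. Their median log2 fold change was -0.01, with 23 above and 30 below 0. Of all 17432 genes tested, 7744 were above and 9688 below 0. Among 10 scaffold genes of the ribbon and active zone the log2 fold changes ran from -0.03 for Pclo, which encodes the active zone protein piccolo, to 0.17 for Bsn, whose product bassoon anchors the ribbon (edgeR, unadjusted p = 0.219). Among 10 genes of vesicle filling and release they ran from -0.06 for Syp, the vesicle protein synaptophysin, to 0.01 for Snap25, a SNARE protein. In 9 genes of calcium handling the lowest was Atp2b1, a plasma membrane calcium pump, at -0.11, and the highest Cabp2, a calcium-binding protein, at 0.17. Among 13 genes of the ON bipolar receptor complex and synaptic leucine-rich repeat proteins the extremes were Gnb5, a G protein β subunit, at -0.06 and Grm6, the gene of mGluR6, at 0.11. All 7 genes of the dystrophin complex and of dystroglycan glycosylation had estimates below 0, with the lowest, -0.09, for Dmd, the dystrophin gene, and none of them passed the threshold. Among the 4 genes listed as partners or paralog of UNC119 the estimates ran from -0.08 for Rp2, which acts with ARL3 in releasing UNC119 cargo, to 0.01 for Unc119b. With the mouse as a block, the estimates of Atp2b1, Dmd and Rp2 were above 0, at 0.03, 0.08 and 0.09. Control 2, which has no partner in that fit, was the highest library of each. Those of Pclo and Unc119b also changed sign, to 0.17 and -0.009, while those of Bsn, Syp, Snap25, Cabp2, Gnb5 and Grm6 did not. Groups did not overlap for 2 of the 53 genes, Erc1 with both FDM libraries higher and Gnb5 with both lower, against 10.6% of all genes; Erc1 was named after its values were seen.

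Among the 10 scaffold genes 7 were higher in the FDM eye of both mice and 2 lower in both, and of the 10 vesicle genes 1 was higher and 7 were lower in both, against 24.7% and 30.3% of all genes. These directions rest on the pairing of FDM 3 with Control 3. With FDM 3 beside Control 2 instead, Bsn and Erc1 alone of those 7 scaffold genes stayed higher in both. Of the 7 vesicle genes, Cplx4 alone, named after its values were seen, stayed lower in both. The other groups were mixed, with 3 higher and 2 lower in both mice of 9 calcium handling genes, 5 and 2 of the 13 ON bipolar genes, 2 and 3 of the 7 dystrophin complex genes, and 1 and 2 of the 4 UNC119 genes. In the fit blocked by mouse, 9 of the 53 were called at an unadjusted p of 0.05, against 7.23% of all genes, and 0 after adjustment by edgeR. With the pairing of the sample titles, FDM 3 with Control 2, edgeR called 0 of the 53 at that threshold, against 2.52% of all genes. Higher were Pclo, Rims2, Unc13b, Nyx and Lrit3, and lower were Vamp2, Slc17a7, Syp and Gnat1, of which all but Pclo and Syp are named here after their values were seen. Pclo had a log2 fold change of 0.17 with the block (edgeR, unadjusted p = 0.0190, adjusted p = 0.619) and of -0.03 without it. Slc17a7, which encodes the vesicular glutamate transporter VGLUT1 of photoreceptor terminals, had -0.12 with the block (edgeR, unadjusted p = 0.0426, adjusted p = 0.683) and 0.01 without it. The difference between the scaffold and vesicle groups was not tested.

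**Figure D5:**
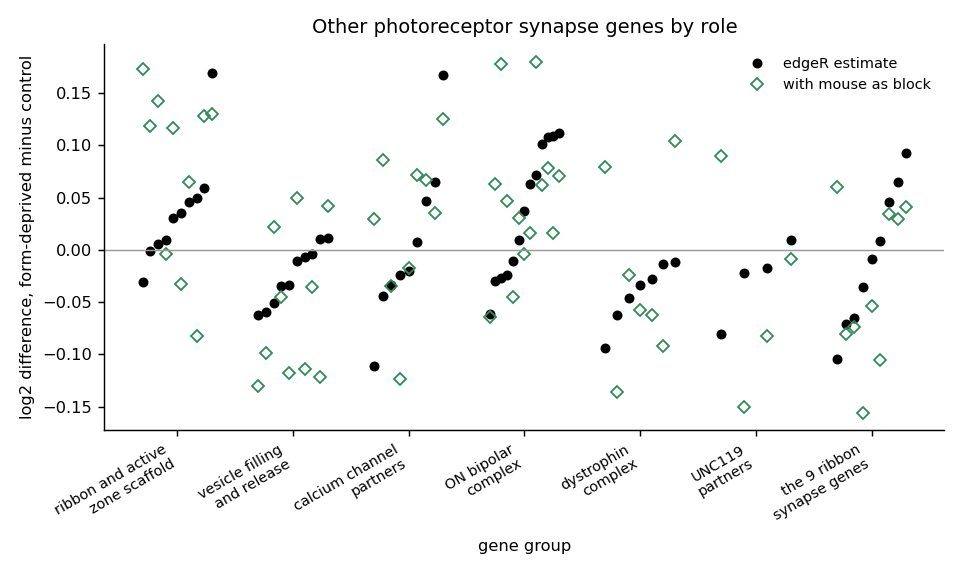
Log2 difference between FDM and control retinas for 53 other photoreceptor synapse genes by role and for the 9 genes described; black points are edgeR estimates and open green diamonds the estimates with the mouse as a block, with genes in each group ordered by the black points. Black points stay between -0.11 and 0.17, with none past an unadjusted p of 0.05.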

How the data were processed

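Retinal poly-A RNA was sequenced by the authors in paired-end mode (TruSeq RNA v2, 50-base reads), trimmed with Trimmomatic 0.39 and quantified with Salmon 1.10.1, with GRCm38/mm10 and R 4.3.1 also named in the submitters' notes. The deposited tables hold estimated counts per gene, and the authors' normalized counts (unit: signal), which divide each count by a library and gene factor. Genes above 10 counts in 2 or more libraries were kept. FDM and control libraries (2 and 3) were compared with edgeR 4.0.16 (quasi-likelihood F test, TMM, two-sided, no covariate) in R 4.3.3, and called at an unadjusted p of 0.05, with Benjamini-Hochberg adjustment over all genes tested. The alternatives used DESeq2 1.42.0, limma 3.58.1, RLE size factors, the authors' factors as offsets, other filters, scaling to rod markers, a mouse block and each library left out. The fits were tested on simulated counts drawn independently for each library. Those counts held no mouse effect and no library-specific RNA of other tissues, so neither was covered.

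CPM are counts per 1e6 counts of the tested genes, after scaling by the TMM factor. Pair differences are log2 ratios of CPM, and over the 53 genes and all genes of log2(CPM + 0.5). The p-values of the main fit rest on the spread between 2 and 3 single retinas, which edgeR moderates over all genes. That fit treats the eyes of 1 mouse as independent. FDM 1 and Control 1, and FDM 3 and Control 3, are eyes of the same mouse by the count table's numbers, and their deviations from the group means correlated at 0.258 and 0.125 over 17432 genes (FDM 3 with Control 2, 0.155), where with 2 FDM libraries the deviations of one mirror those of the other. Gene positions follow GENCODE M21. All 9 genes are named, and of the 53 others those past the threshold and the highest and lowest log2 fold change of each role, 1 of which is not reported here. The genes and lists were chosen with earlier results of these data known.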

Additional observations from a re-analysis of the deposited data

How the results depend on the processing

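Over 15 alternatives to the unpaired edgeR fit, 116 of 135 estimates for the 9 genes kept their direction and their side of the threshold, 17 changed sign and 2 passed an unadjusted p of 0.05. The count of the 9 called went from 0 to 1 with the replicate block that paired FDM 3 with Control 3 (Egflam), and was 0 to 1 with each library left out (1 without Control 1, Cacna1f). For the 53 other synapse genes it went from 0 to 9 with that block and was 0 to 2 with a library left out (2 without Control 1, Bsn and Gpr179, the latter named after its values were seen, and 1 without Control 2, Pclo). The block turned Unc119 to -0.11 and Lrit1 to 0.0602. The block by sample titles, FDM 3 with Control 2, turned Egflam to 0.0097 and Dag1 to 0.0214, and scaling to rod markers turned Dag1 to 0.0181. No other setting changed a sign except leaving out a library, with log2 fold changes of -0.0089 to 0.2533 for Cacna1f, -0.0246 to 0.1129 for Ctbp2, -0.0939 to 0.1038 for Unc119, -0.1427 to 0.0605 for Egflam, -0.0431 to 0.0269 for Dag1, -0.1623 to 0.0151 for Elfn1 and -0.2285 to 0.0657 for Lrit1. Cacna2d4 (0.0114 to 0.1596) and Cabp4 (-0.1039 to -0.0189) kept theirs. The causes were not tested. A lone FDM library was assumed to vary like the controls. Limits are the number of eyes, the 2 numberings of FDM 3, and the lens RNA in FDM 3, pigment epithelium RNA in Control 2 and 3 and muscle RNA in Control 3.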
